A study of Mus musculus with 8 samples.

Results

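The 10 genes described here, Pdgfra, Pi16, Dpt, Dpp4, Cd34, Ly6a, Gsn, Cd248, Clec3b and Mfap5, are expressed by fibroblast progenitors, the mesenchymal cells that lie between muscle fibres. They were taken by name from the probes of an Agilent 1-colour expression array, which gave 16 probes among 56605 distinct ones, and all 10 genes had at least 1 tested probe among 16037 named genes with one. They were chosen by knowledge of their role together with their measured log2 differences between P. gingivalis and control arrays, which were known when the set was put together. These differences between groups are therefore given as descriptions, without tests.

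RNA came from tibialis anterior muscle of male C57BL/6J mice aged 14 weeks. The protocol states a high-fat diet, but it also uses group names that no sample title carries, so the diet of each group is not certain. In the P. gingivalis group (4 samples) the mice were given Porphyromonas gingivalis, an anaerobic bacterium of the gum pocket, for 6 weeks by feeding needle in 100 µL of saline, and they were 8 weeks old at the start. The control group (4 samples) is labelled as control only. The sources used here do not give the bacterial dose or what the controls received. The labels do not say outright that each sample is 1 mouse, so p-values measure the spread between these samples. The study asked how oral P. gingivalis changes gene expression in skeletal muscle.

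Fibro-adipogenic progenitors are the resident mesenchymal stromal cells of skeletal muscle. They carry the receptor PDGFRA, lay down interstitial matrix, support muscle stem cells after injury, and can turn into fat-storing or scar-forming cells when repair fails. In many mouse tissues a subset marked by Dpp4, Pi16 and Cd248 sits in fascia and around vessels and is regarded as an early fibroblast progenitor. Dpp4 encodes a membrane-bound peptidase that clips short segments from the start of incretin hormones and chemokines, and it is the target of the gliptin drugs.

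The starts of the 3 Dpp4 probes are shown because they gave different readings. Each probe has 60 bases, of which the first 30 are printed, 5′ to 3′. Per the file headers the probe positions are on mouse build mm9, minus strand. The probe at position 3276 of transcript NM_010074 lies at chr2:62170062-62170121, and the probe at position 1959 of the same transcript spans chr2:62192636-62194702, so 2007 genomic bases inside that span are not in the probe. The probe for transcript ENSMUST00000151818, at its position 232, lies at chr2:62245782-62245841, which is 75720 bases from the first. No mm9 gene annotation was used here, so exon and untranslated-region positions are not given.
NM_010074 position 3276: caaagcactgacttctaagtaaaaccacag
NM_010074 position 1959: aattggacttcattgttttgaatgaaacaa
ENSMUST00000151818 position 232: aatgaaagctttgtgtatgtcagaggacag

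The stretch upstream of the annotated start is shown for Dpp4, whose probe differed most between the groups among the genes' brightest probes, and for Dpt and Pi16, which varied together across the arrays. The sequences are the 250 bases before the start from RefSeq on build GRCm38.p6, in the direction of transcription. They lie at chr2:62412232-62412481 on the minus strand for Dpp4, at chr1:164796413-164796662 on the plus strand for Dpt, and at chr17:29318632-29318881 on the plus strand for Pi16. Capitals mark matches to 7 short motifs searched on both strands, namely the TATA box with letters TATAAA, the CCAAT box with CCAAT, the GC box with GGGCGG, the AP-1 site with TGACTCA, the TEAD site with CATTCC, the STAT site with TTCNNNGAA and the E-box with CACGTG. No 2 of these letter strings overlap in the windows printed.
Dpp4: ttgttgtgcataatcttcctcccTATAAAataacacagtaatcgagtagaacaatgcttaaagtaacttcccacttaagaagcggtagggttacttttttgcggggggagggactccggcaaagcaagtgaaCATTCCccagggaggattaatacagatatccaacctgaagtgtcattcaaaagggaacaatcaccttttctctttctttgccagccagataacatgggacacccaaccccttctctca
Dpt: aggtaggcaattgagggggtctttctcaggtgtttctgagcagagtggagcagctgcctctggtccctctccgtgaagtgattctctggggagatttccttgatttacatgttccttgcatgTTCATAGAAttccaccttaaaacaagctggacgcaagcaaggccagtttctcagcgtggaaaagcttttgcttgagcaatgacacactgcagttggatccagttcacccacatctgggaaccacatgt
Pi16: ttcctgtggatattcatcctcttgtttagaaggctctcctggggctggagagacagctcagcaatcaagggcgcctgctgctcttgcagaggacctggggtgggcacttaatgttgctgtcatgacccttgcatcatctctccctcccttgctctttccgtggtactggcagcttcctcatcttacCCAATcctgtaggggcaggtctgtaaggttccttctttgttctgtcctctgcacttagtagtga
In Dpp4 the capitals are the TATA box at −227 and the TEAD site at −118 from the start, in Dpt the STAT site at −128, and in Pi16 the CCAAT box at −64. Of 32851 mouse windows of this length, 12.4% held the TATA box letters, 12.6% the TEAD site, 7.02% the STAT site and 33.8% the CCAAT box. Of the 10 genes, 6 had entries, with 8 windows in all, and none of the 8 held the AP-1 site (4.46% of all windows) or the E-box (6.02%). The GC box was found in 3 of the 8 windows, all at Gsn (32.7% of all windows). Ly6a, Cd248, Clec3b and Mfap5 are named only. A match describes the letters and no binding was measured.

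Several facts of the arrays bear on all values below. All 8 arrays were on 1 slide and 1 scan, with the P. gingivalis arrays in slide row 2 and the control arrays in slide row 1, so row and group cannot be told apart. The 75th percentile of processed intensity, on which each array was scaled, was 238 to 255 on P. gingivalis arrays and 275 to 306 on control arrays, a log2 difference of −0.24. Spots well above background made up 56.3% to 59.3% of each array, and none was saturated. The authors' value table puts some arrays in the other group: each of its columns matched 1 array clearly (correlations of 0.833 to 0.88), yet only 4 of 8 columns carried the group of the array they matched. P. gingivalis 3 and 4 and controls 1 and 2 had the same group in both sources. Taken in order, the value table's columns matched control 1, P. gingivalis 1, control 2, P. gingivalis 2 and so on in turn to P. gingivalis 4. That is the order of the slide columns, each read from row 1 to row 2. With the value table's groups, controls would hold slide columns 1 and 2, and P. gingivalis arrays columns 3 and 4. Why the sources differ was not tested. Which source is right could not be settled, and groups here follow the scanner files. P. gingivalis 1 and control 2 stood apart from the other arrays in these genes, and control 4 carried skin epidermis markers, as described below.

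Levels are log2 signals relative to the array's own 75th percentile, and differences are P. gingivalis minus control with the standard error (SE) of the fit. On its brightest tested probe, 9 of the 10 genes averaged higher in P. gingivalis muscle and Ly6a averaged lower, where 45.7% of all 16037 genes averaged higher. The median difference over the 10 genes was 0.23, beside −0.01 over all genes. The largest was that of Dpp4 (0.58) and the lowest that of Ly6a (−0.21). In limma's fit 0 of the 31649 tested probes passed an adjusted p of 0.05 (percent called 0), and 3545 had an unadjusted p under 0.05. Of the 14 tested probes of the 10 genes, 4 had a 95% interval that left out 0, against 11.2% of all tested probes. Of these 3 were higher (4.84% of all tested probes) and 1 lower (6.36%). Groups did not overlap on 1 of the 14, against 6.67% of all tested probes, and it was higher (3.01%). Nothing is read from these counts, since the same comparison served to choose the genes. In a bulk sample, more cells of a type and more RNA per cell cannot be told apart.

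**Figure D1:**
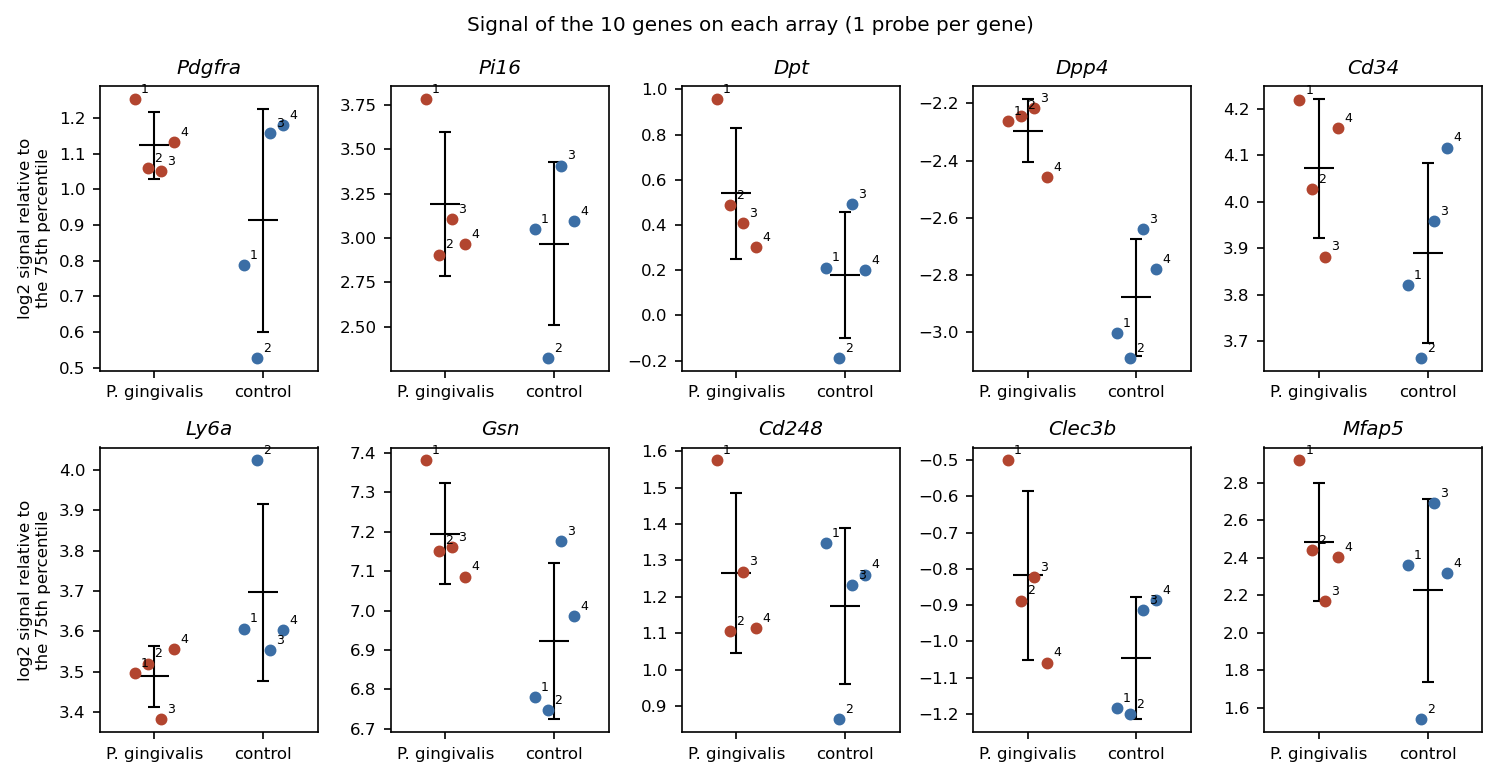
Log2 signal relative to the array's 75th percentile (vertical axes, each with its own range) for the brightest probe of each of the 10 genes. Points are single arrays with their replicate number, P. gingivalis at left and control at right, and bars give the mean and SD of 4 arrays. Control 2 is the lowest array for 9 genes and the highest for Ly6a, and the groups do not overlap for Dpp4 alone.

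Dpp4 gave opposite readings on its 2 tested probes. On the probe at position 3276 of NM_010074 the signal was −2.26, −2.24, −2.22 and −2.46 on P. gingivalis arrays 1 to 4, against −3.00, −3.09, −2.64 and −2.78 on control arrays 1 to 4. Every P. gingivalis array lay above every control array, and the difference was 0.58 (SE 0.11), a 1.50-fold ratio with a 95% interval of 1.26 to 1.79. The processed intensities as deposited were 52.2, 54.0, 51.3 and 45.3 in P. gingivalis muscle, against 36.2, 35.9, 44.1 and 44.3 in control muscle. The groups were thus apart without any scaling too, with control 3 and 4 just below P. gingivalis 4. The log2 difference was smaller then, at 0.34, and was 0.345 with normexp background correction and 0.40 in the matched value table.

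On the probe of ENSMUST00000151818 Dpp4 stood at −3.42, −3.24, −3.16 and −2.98 on P. gingivalis arrays, against −2.86, −2.92, −2.77 and −3.06 on control arrays. Here P. gingivalis 1 to 3 lay below every control array and P. gingivalis 4 lay between control 2 and control 4. The difference was −0.30 (SE 0.11), a ratio of 0.814 with an interval of 0.688 to 0.963. The third Dpp4 probe, at position 1959, was not well above background on any array and was not tested. Averaged over both tested probes the Dpp4 difference was 0.14. With the groups as the value table carries them it was 0.13 on the position 3276 probe and 0.12 on the ENSMUST00000151818 probe, and with only the 4 arrays of concordant group it was 0.71 and −0.17.

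**Figure D2:**
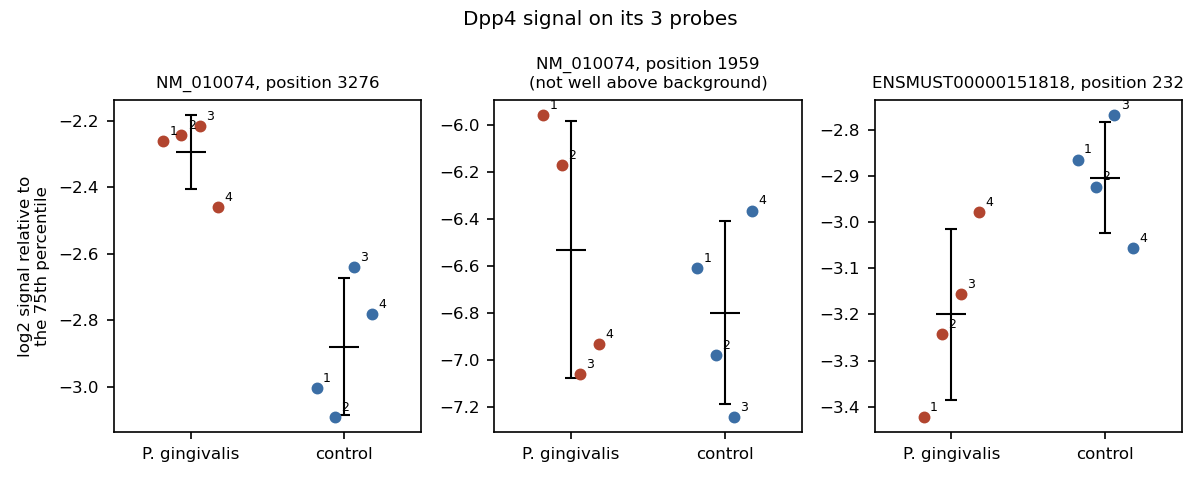
Log2 signal relative to the array's 75th percentile for the 3 Dpp4 probes, each panel with its own range, P. gingivalis at left and control at right. Points are arrays and bars the mean and SD of 4 arrays. The position 3276 probe is higher on all 4 P. gingivalis arrays, the ENSMUST00000151818 probe is lower on 3 of them, and the position 1959 probe was not well above background.

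Of the cell-surface genes, Pdgfra encodes the receptor tyrosine kinase for platelet-derived growth factors that defines these progenitors. Its NM_011058 probe gave 1.25, 1.06, 1.05 and 1.13 on P. gingivalis arrays, against 0.79, 0.53, 1.16 and 1.18 on control arrays. Control 3 and 4 lay within the P. gingivalis range and control 1 and 2 below it, with a difference of 0.21 (SE 0.15), and of 0.08 without control 2. A probe for the cDNA AK145097 was well above background on 4 P. gingivalis and 3 control arrays and differed by 0.70 (SE 0.24). That difference was 0.29 with normexp background correction, 0.24 in the matched value table and 0.22 under the value table's groups. The probe for AK139094 was well above background on 1 array, a control, and was not tested. Averaged over the tested probes the Pdgfra difference was 0.45.

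Cd34 encodes a sialomucin of progenitor and endothelial cells. Its probe at transcript position 2370 gave 4.22, 4.03, 3.88 and 4.16 on P. gingivalis arrays, against 3.82, 3.66, 3.96 and 4.12 on control arrays. The groups overlapped, with a difference of 0.18 (SE 0.11), and of 0.11 without control 2. The Cd34 probe at position 963 gave 0.15 (SE 0.11), and 0.07 without P. gingivalis 1. Cd248 encodes endosialin, a lectin-like glycoprotein of stromal cells and pericytes. Its signal was 1.57, 1.11, 1.27 and 1.11 in P. gingivalis muscle, against 1.35, 0.86, 1.23 and 1.26 in control muscle. Control 1, 3 and 4 lay inside the P. gingivalis range, and the difference of 0.09 (SE 0.14) was the smallest of the 10 in size. It changed sign without control 2 (−0.01) and without P. gingivalis 1 (−0.01), and was 0.14 to 0.15 without control 1, P. gingivalis 2 or P. gingivalis 4.

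Ly6a, which encodes the GPI-anchored antigen SCA-1 and is also expressed by endothelial cells, ran the other way. It read 3.50, 3.52, 3.38 and 3.56 on P. gingivalis arrays, against 3.61, 4.02, 3.55 and 3.60 on control arrays. Control 2 was far above the rest, and control 3 lay just below P. gingivalis 4. The difference was −0.21 (SE 0.11), a ratio of 0.866 with an interval of 0.727 to 1.03, and −0.10 without control 2.

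Among the secreted proteins, Dpt encodes dermatopontin, a small matrix protein that binds decorin. Dpt gave 0.96, 0.49, 0.41 and 0.30 in P. gingivalis muscle, against 0.21, −0.19, 0.49 and 0.20 in control muscle. Control 3 matched the middle of the P. gingivalis arrays, the other controls lay below all of them, and the difference was 0.36 (SE 0.18). It was 0.24 without control 2 and 0.22 without P. gingivalis 1. Pi16, a peptidase inhibitor of the CAP family, gave 3.78, 2.91, 3.11 and 2.97 in P. gingivalis muscle, against 3.05, 2.32, 3.41 and 3.09 in control muscle. The difference of 0.22 (SE 0.26) rested on the highest and lowest arrays: it was 0.02 without P. gingivalis 1, 0.01 without control 2 and 0.37 without control 3.

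Mfap5 encodes a glycoprotein of elastic microfibrils. It stood at 2.92, 2.44, 2.17 and 2.40 on P. gingivalis arrays, against 2.36, 1.54, 2.69 and 2.32 on control arrays, a difference of 0.26 (SE 0.25). The Mfap5 difference was 0.03 without control 2, 0.11 without P. gingivalis 1 and 0.41 without control 3. Clec3b encodes tetranectin, which binds plasminogen. Its signal was −0.50, −0.89, −0.82 and −1.06 in P. gingivalis muscle, against −1.18, −1.20, −0.91 and −0.89 in control muscle, with overlapping groups and a difference of 0.23 (SE 0.13). The Clec3b difference was 0.12 without P. gingivalis 1 and 0.02 under the value table's groups.

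Gsn encodes gelsolin, which severs and caps actin filaments inside cells and also has a secreted form. On the probe at position 2527 it gave 7.38, 7.15, 7.16 and 7.09 on P. gingivalis arrays, against 6.78, 6.75, 7.18 and 6.99 on control arrays. Only control 3 reached the P. gingivalis range, and the difference was 0.27 (SE 0.11), a 1.21-fold ratio with an interval of 1.01 to 1.44. The second Gsn probe, at position 330, differed by 0.38 (SE 0.17) in the same direction.

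**Figure D3:**
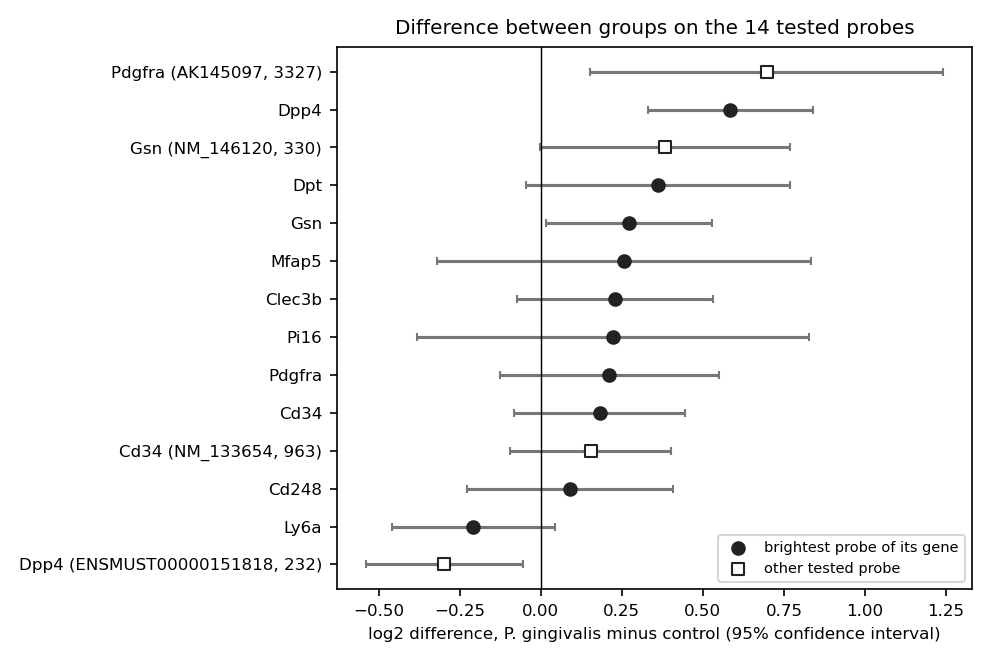
Log2 difference, P. gingivalis minus control, for the 14 tested probes of the 10 genes, with 95% confidence intervals of the fit. Filled circles are the brightest probe of a gene and open squares its other tested probes. The intervals leave out 0 for the Dpp4 probe at position 3276 and the Pdgfra probe of AK145097 and the brightest Gsn probe, all higher, and for the Dpp4 probe of ENSMUST00000151818, which is lower.

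Much of the variation ran between single arrays. Averaged over the 10 genes, each centred on its own mean, the score was 0.37, 0.04, 0.02 and 0.01 on P. gingivalis arrays 1 to 4, against −0.14, −0.39, 0.10 and −0.01 on control arrays 1 to 4. P. gingivalis 1 was the highest array for 8 of the 10 genes, and control 2 was the lowest for 9. The remaining 3 P. gingivalis arrays lay within the range of the controls. The median difference over the 10 genes was 0.09 without control 2 and 0.13 without P. gingivalis 1, each with 8 of 10 genes higher. Without both arrays it was 0.05, with 6 of 10 genes higher, and the Dpp4 difference was then 0.50. The genes lower in that setting were Pi16 (−0.19), Mfap5 (−0.12), Cd248 (−0.12) and Ly6a (−0.10). Under the value table's groups the median was 0.08, with 7 of 10 genes higher.

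Within groups the genes varied together. After each group's mean was taken off, the 28 pairs among the 8 genes other than Dpp4 and Ly6a had Pearson correlations of 0.54 to 0.96 over the 8 arrays, with a median of 0.80, where the mean over all gene pairs was 0.01. Without control 2 and P. gingivalis 1 the median of these pairs was 0.31 over 6 arrays and the range was −0.77 to 0.82. The 9 pairs with Ly6a were negative over the 8 arrays, from −0.74 to −0.43 with a median of −0.69. Without control 2 their median was −0.20 and the pairs of Ly6a with Cd34 (0.56), Mfap5 (0.22) and Pdgfra (0.01) were positive. With P. gingivalis 1 also left out they ran from −0.66 to 0.61. Dpp4 followed Gsn closest, at 0.85, and Ly6a least, at −0.73. Without control 2 and P. gingivalis 1 Dpp4 followed Clec3b at 0.92 and Gsn at 0.91. The arrays share a slide, a scan and the scaling, and these correlations are descriptions.

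**Figure D4:**
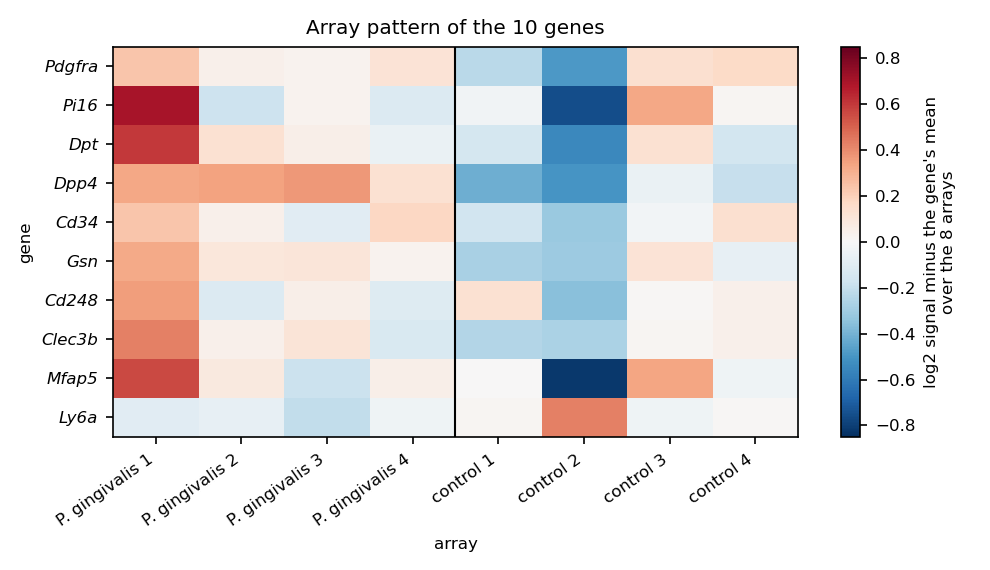
Log2 signal of each gene minus its mean over the 8 arrays (colour), with genes in rows and arrays in columns, P. gingivalis left of the line and control right of it. Most genes are high on P. gingivalis 1 and low on control 2, Ly6a is the reverse on control 2, and Dpp4 is above its mean on all 4 P. gingivalis arrays.

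The non-member genes whose pattern within groups was most like that of Dpp4 (position 3276 probe) were Dcn, Egr1, Sh3kbp1, Prkd2 and Art4, with correlations of 0.97 to 0.99 over 8 arrays. Dcn, which encodes the matrix proteoglycan decorin, had 0.99 and a group difference of 0.13. Egr1, an immediate early transcription factor, also had 0.99 within groups, while its group difference was −0.93. Of 16027 genes, 46 (0.287%) had a correlation above 0.9 with Dpp4. The genes named are the top of this ranking, and how many chance would give over 8 arrays was not tested. Closest to the mean of the 10 genes were Ifngr1, a chain of the interferon gamma receptor, the integrin chain Itgb7, Rerg, Galnt16 and the predicted gene Gm6756, all at 0.99. Of the same 16027 genes, 167 (1.04%) were above 0.9 there.

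Other genes of fibroblasts and progenitors were read from lists, none of which had a gene past an adjusted p of 0.05 in limma in either direction. As a reference for all lists here and below, 45.7% of all genes averaged higher. Of all tested probes, 4.84% were higher and 6.36% lower with an unadjusted p under 0.05 in limma. The lists were chosen with earlier results of these data known, so their counts are descriptions. Of 19 tested genes of the Dpp4+ Pi16+ progenitor state, 13 averaged higher and 6 lower, with a median of 0.13, and 1 had an unadjusted p under 0.05. That gene was Creb5, a transcription factor, at 0.16 (SE 0.06, limma adjusted p = 0.401). The groups did not overlap on its brightest probe, while other Creb5 probes gave differences down to −0.01. Tnxb, the matrix protein tenascin X, differed by 0.35 (SE 0.16, limma adjusted p = 0.454), and Pcolce2, an enhancer of procollagen processing, by 0.32 (SE 0.17, limma adjusted p = 0.514). Without control 2 and P. gingivalis 1 this list's median was −0.03, with 8 of 19 genes higher.

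Of 19 other fibro-adipogenic progenitor genes, 14 averaged higher and 5 lower, with a median of 0.13, and 7 higher and 1 lower had an unadjusted p under 0.05. Lum, the proteoglycan lumican, differed by 0.65 (SE 0.15) and Podn, the related podocan, by 0.47 (SE 0.12), each with a limma adjusted p of 0.323 and no overlap between groups. Col15a1, a basement membrane collagen, read −0.72 (SE 0.20, limma adjusted p = 0.329), but its probe was well above background on 1 of 4 P. gingivalis arrays and on all 4 controls. Tcf21 was not above background on any array. Without control 2 and P. gingivalis 1 the median was 0.04, with 11 of 19 higher.

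All 22 fibroblast matrix genes averaged higher in P. gingivalis muscle, with a median of 0.27, where 45.7% of all genes averaged higher. Of the 22, 11 had an unadjusted p under 0.05, all higher, against 4.84% of all tested probes. Col3a1, a fibrillar collagen of the interstitium, averaged 4.23 ± 0.24 in P. gingivalis muscle and 3.28 ± 0.56 in control muscle (SD, n = 4 each), a difference of 0.94 (SE 0.26, limma adjusted p = 0.329). Its groups did not overlap on that probe, and other Col3a1 probes gave as little as 0.11. Col1a2 differed by 0.64 (SE 0.18, limma adjusted p = 0.334), also without overlap, and Col6a3 by 0.59 (SE 0.17, limma adjusted p = 0.329) with overlap. Other probes gave as little as 0.21 for Col1a2, and −0.02 for Col6a3. Without control 2 and P. gingivalis 1 the median of the matrix genes was 0.18, with 17 of 22 higher. With the groups of the value table it was 0.05, also with 17 of 22 higher.

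The families to which single genes of the 10 belong were read in the same way. Of 6 PDGF genes 3 averaged higher and 3 lower (median 0.02, and −0.02 without control 1), and 1, lower, had an unadjusted p under 0.05. It was the ligand gene Pdgfa, which differed by −0.28 (SE 0.10, limma adjusted p = 0.375), while its other tested probe gave −0.09. The receptor-like Pdgfrl gave 0.29 and the ligand gene Pdgfd 0.15, with 0.58 on the other tested Pdgfd probe. Of 7 DPP4-family genes 3 averaged higher and 4 lower (median −0.02, with the sign turned under normexp, quantile and median scaling). The 1 with an unadjusted p under 0.05 was Fap, the fibroblast activation protein, at 0.27 (SE 0.11, limma adjusted p = 0.435). Its other tested probe gave 0.51. Dpp10 gave −0.25, with −0.15 on its other tested probe, and Dpp9 0.06.

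Of 8 tested Ly6 genes, 7 averaged lower like Ly6a and 1 higher, with a median of −0.16, and under normexp correction 4 were lower and 4 higher. Ly6e alone had an unadjusted p under 0.05, at −0.26 (SE 0.11, limma adjusted p = 0.438). Ly6g6c differed by −0.36 (SE 0.23), while its other tested probe gave 0.09. The vessel-expressed Ly6c1 differed by −0.16 (SE 0.09), with −0.03 on its other tested probe. Ly6h and Ly6f were not above background on any array. In the gelsolin family 2 of 6 genes averaged higher and 4 lower (median −0.05), with 0 past an unadjusted p of 0.05 in limma. Avil differed by −0.38 (SE 0.24), Capg by −0.08 (SE 0.08) and Scin by 0.10 (SE 0.11), with Vil1 not above background on any array.

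**Figure D5:**
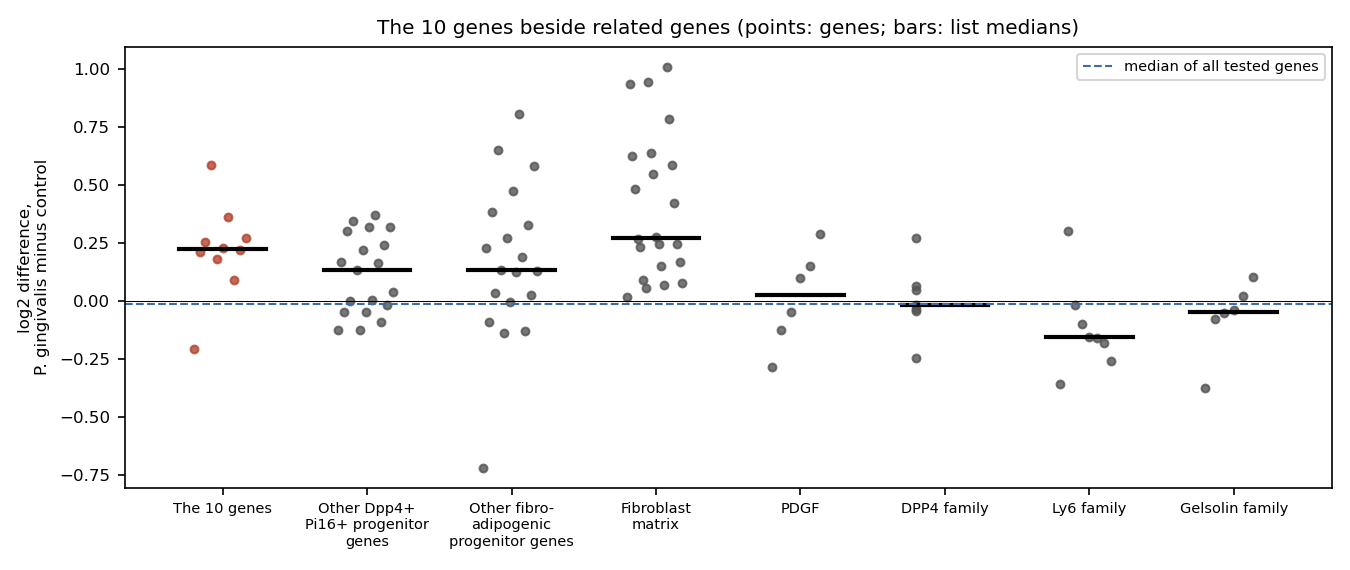
Log2 difference, P. gingivalis minus control, on the brightest tested probe of each gene (points) for the 10 genes and for 7 lists of related genes, with list medians as bars and the median of all tested genes (−0.01) as a dashed line. All 22 matrix genes are above 0, and the lowest point among fibro-adipogenic progenitor genes is Col15a1, whose probe was well above background on 1 P. gingivalis array.

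Marker lists of other cell types were read beside the 10 genes. Summed levels are sums of signals in units of the array's 75th percentile, so each sum mostly follows the brightest genes of its list. For tendon this was Thbs4, with a mean log2 level of 4.79 in P. gingivalis and 4.38 in control muscle. All 6 tested tendon markers averaged higher in P. gingivalis muscle, with sums of 29.8 to 36.9 against 19.9 to 29.1 in control muscle, and control 2 had the lowest mean tendon score (−0.86). All 9 endothelial markers, which share vessels with Cd34 and Ly6a, averaged lower, with sums of 29.2 to 38.9 against 37.6 to 43.6. Their median difference was only −0.05, beside −0.01 over all genes, of which 45.7% averaged higher. The endothelial differences ran from −0.59 for Kdr (SE 0.15, limma adjusted p = 0.323) to −0.01 for Tek. Of the 9, 3 had an unadjusted p under 0.05, all lower, against 6.36% of all tested probes. Skin epidermis markers summed to 1.39 to 1.53 on P. gingivalis arrays and 1.23 to 16.7 on control arrays, the top value being control 4. All 4 tested neutrophil markers averaged lower, with a median difference of −1.62 and sums of 43.6 to 51.6 against 51.0 to 58.2. S100a8 differed by −3.42 (SE 0.97, limma adjusted p = 0.330), with a probe well above background on 2 of 4 P. gingivalis arrays, and S100a9 by −2.93 (SE 0.80, limma adjusted p = 0.329). The groups overlapped for both, and Ngp was not above background on any array. Csf3r, which makes up most of the neutrophil sum, differed by −0.15 (SE 0.07). Its mean level was 5.56 in P. gingivalis and 5.71 in control muscle, against −2.96 and −0.03 for S100a9.

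Most macrophage and muscle fibre markers averaged higher, like the 10 genes. Of 8 macrophage markers 7 averaged higher (median 0.17), with sums of 25.4 to 35.2 in P. gingivalis muscle against 21.8 to 28.1 in control muscle, and the highest score was on P. gingivalis 1. The 2 with an unadjusted p under 0.05 were Csf1r at 0.35 (SE 0.12, limma adjusted p = 0.384) and Cd163 at 0.64 (SE 0.27, limma adjusted p = 0.433). The other tested Csf1r probe gave 0.18. Of 8 muscle fibre markers 7 averaged higher (median 0.11), with the lowest score on control 2 and the highest on P. gingivalis 1. Within groups the correlation of the list score with that of the 10 genes over 8 arrays was 0.80 for muscle fibre, 0.54 for macrophage, 0.61 for tendon and −0.25 for both endothelial and neutrophil markers. It was higher for lymphatic (0.89, 4 tested genes with the dim Flt4 among them) and mesothelial markers (0.82, 2 tested genes). Among the lists of related genes it was 0.92 for the Dpp4+ Pi16+ progenitor state, 0.98 for other fibro-adipogenic progenitor genes and 0.95 for fibroblast matrix. Each of these related lists also had its lowest score on control 2 and its highest on P. gingivalis 1. The correlations of list scores were not computed without those arrays.

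For the labelled tissue, 8 of 8 muscle fibre markers were well above background on all arrays, with sums of 5279 to 5558 in P. gingivalis muscle and 4805 to 5278 in control muscle. In none of the 14 marker lists did a gene pass an adjusted p of 0.05 in limma, where the lowest was 0.323. Of 74 tested genes, 6 higher and 8 lower had an unadjusted p under 0.05, against 4.84% and 6.36% of all tested probes. Beside Ngp, markers not above background on any array were Myf5, Upk3b, Lrrn4, Ibsp and Acan. The part of tendon, vessel, skin, macrophage, neutrophil or muscle fibre RNA in the differences of the 10 genes was not tested.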

How the data were processed

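Total RNA (200 ng per sample) was labelled with Cy3 and hybridised to 8 arrays, 4 per group, per the labels' protocols. Each spot's intensity, as deposited, had its background subtracted and its array's trend removed by Agilent Feature Extraction; per the file headers this was 11.0.1.1, while the submitters' processing notes give 11.1. A second source from the authors held log2 values of 24764 probes with near-equal column medians, and no source used here says how these were normalized.

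The log2 of the processed intensity was taken, less the 75th percentile of the array (control spots not counted). Outlier spots were left out before the spots of a probe were averaged, but were kept where all spots of the probe on that array were flagged. Most probes have a single spot, so most outlier spots stayed in. Flagged spots made up 0.11% to 0.22% of each array, and no spot of the genes described here was flagged. The 31649 tested probes were well above background on at least 4 arrays, and a gene was represented by its brightest tested probe. Probe names followed the RefSeq table of GRCm38.p6, used for names only. The comparison used limma 3.58.1 (R 4.3.3) without covariates, and p-values were adjusted by Benjamini-Hochberg across every tested probe. The fit was tested on simulated data. The number of arrays sets the precision.

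The 10 genes and all 21 other lists (7 of related genes, 14 of cell type markers) were chosen with earlier results of these data known. The genes named are every one of the 10, the 3 of lowest unadjusted p in each list of related genes, and the 5 most like Dpp4 and the 5 most like the mean of the 10. Beyond these, the markers Kdr, Tek, Thbs4, S100a8, S100a9, Csf3r, Csf1r and Cd163 were named with their values known. So were the genes most like Ly6a, and listed genes not above background on any array. Dcn also belongs to a list, and Fap to 2. Replicate numbers do not pair the samples: same-numbered arrays deviated together with correlations of 0.01 to 0.06. Alternatives were other background correction, scaling, filters, variance model and groups, a replicate block, each array left out, the mean over probes and, added after seeing the data, both outlying arrays left out and no scaling.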

Additional observations from a re-analysis of the deposited data

Results flagged for a closer look

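Ly6a on control 2 stood apart from the other 3 control arrays. Its log2 signal there was 4.02, beside 3.61, 3.55 and 3.60 on controls 1, 3 and 4, and the gap to the nearest control was 0.886 of the group's range, above the 95% critical value of Dixon's test for 4 values. It was the only such value among 28 groups of 4 arrays tested for the 14 probes. Chance gives about 1 in 20, so 1 among 28 is no more than chance would give. The 28 groups also share the same arrays. The other 9 genes were lowest on that array.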

How the results depend on the processing

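The count of probes past an adjusted p of 0.05 was 0 in most settings and 18 with normexp correction, 2 without a filter on dim probes, 2 with an intensity trend, 1 with the matched value table and 9800 with no scaling between arrays. Probes with an unadjusted p under 0.05 numbered 3545 (1532 higher, 2013 lower), against 9394 (7426 higher, 1968 lower) with normexp, 1224 under the value table's groups and 16052 (101 higher, 15951 lower) with no scaling. The split with the median of tested probes was 2041 higher and 1505 lower, with quantile normalization 1891 and 1680, and without a filter 2512 and 2186. With no scaling between arrays (chosen after seeing the data) the median over the 10 genes was reversed at −0.0172, with 4 of 10 higher, when 6.93% of all genes were higher and their median was −0.26. Leaving out 1 array gave a median of 0.09 to 0.32 and 8 to 9 genes higher. The Dpp4 probe of ENSMUST00000151818 was reversed at 0.12 under the value table's groups, and was −0.01 with normexp. The Dpp4 probe at position 3276 stayed higher in all settings run, from 0.13 with those groups to 0.71, and was 0.345 with normexp. Dpt (−0.02) and Cd248 (below 0.01 in size) also changed sign with those groups. The replicate block could not change any difference, since each group has 1 array of each replicate number, so the median of 0.23 under it is no check. It gave 0 probes past the adjusted p and 3402 with an unadjusted p under 0.05. Of the values for single genes, lists and other counts, 383 moved by less than the limits set (1 SD between arrays, or 1.5 times for a count) and 19 by more. The 383 include settings that cannot change a probe's difference, namely the replicate block, the intensity trend and the filters on dim probes. The causes of the shifts were not tested. Dim probes, Dpp4 among them, are read close to background.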

Other observations

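After its values were seen, the genes most like Ly6a within groups were also listed, in the same way as for Dpp4. They were Sltm, Dcun1d1, Ubxn4, Kif3a and Gm12633, with correlations of 0.97 to 0.98 over 8 arrays. Without control 2 and P. gingivalis 1, Sltm, which encodes a nuclear RNA-binding protein, still had 0.96 over 6 arrays and Kif3a, a kinesin motor gene, 0.82. Of 16027 genes, 151 (0.942%) were above 0.9 with Ly6a.

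The lymphatic marker list had its lowest score on control 2 (−0.60) and its highest on P. gingivalis 1 (0.30), the same arrays at which the 10 genes were lowest and highest. Its 4 tested markers were split, 2 higher and 2 lower in P. gingivalis muscle. One of the 4, Flt4, was dim, with a probe well above background on 3 P. gingivalis and 2 control arrays. Its SD over the controls was 1.16, against 0.35 or less for the other markers, so it weighs heavily in the list score.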
